A study of Mus musculus with 13 samples.

Results

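Runx1, Runx2, Runx3, Sp7, Nfic, Mef2c and Klf4 encode 7 transcription factors of bone- and dentin-forming cells. They were listed by symbol and matched to the Ensembl identifiers of the deposited count table. All 7 were found among its 34709 genes, and all 7 passed the filter on low counts that left 17837 genes for testing. RNA had been sequenced from whole lower incisors of males at postnatal day 5, in 3 libraries of VDRgem mutants, 5 of VDR-null mutants and 5 of wild-type controls. Vdr, the gene of the vitamin D receptor, is altered in both kinds of mutant. A VDRgem receptor is known to answer synthetic gemini ligands but not the natural hormone, and a VDR-null mouse has no functional receptor. The sources used here do not give the exact alleles, the strain background, the diet or any litter. The labels name as many males as libraries in each group but tie no library to an animal, so a p-value here reflects only how far libraries differ, which may be technical.

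RUNX proteins bind DNA together with their partner CBFB, and in mice RUNX2 is required for osteoblasts, the cells that lay down bone. SP7, also called osterix, acts after RUNX2 in the same lineage. NFIC is required in mice for normal odontoblasts, the cells that make dentin, and for molar roots, while KLF4 is known to promote odontoblast differentiation. MEF2C drives cartilage and bone maturation as well as muscle genes, and RUNX1 and RUNX3 are also factors of blood cells. The vitamin D receptor binds DNA with the retinoid X receptor, most often at a direct repeat with a spacer that is known by the name DR3.

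The 3 Runx genes share a short element near the start of their upstream promoters, shown here because it holds sites for the proteins they encode. In the following 30-base windows, from RefSeq on GRCm38.p6 and written 5′ to 3′ on the strand of the gene, capitals mark ACCACA, the RUNX site TGTGGT read on the opposite strand.
Runx1, minus strand of chr16:92826025-92826054: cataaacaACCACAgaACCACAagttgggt
Runx2, minus strand of chr17:44814583-44814612: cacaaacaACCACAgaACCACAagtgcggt
Runx3, plus strand of chr4:135120503-135120532: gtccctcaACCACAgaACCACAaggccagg
The longest run common to all 3 was 18 bases. Counted from the annotated start, the 14 bases from the first to the last capital lay at 29 to 42 in Runx1, at 24 to 37 in Runx2 and at -134 to -121 in Runx3. Of 32851 RefSeq promoter windows of 250 bases before to 50 after a start, 4 (0.0122%) held those 14 bases. They belonged to the 3 Runx genes and to Gm16225, a neighbour of Runx3. A single TGTGGT on either strand was in 16.8% of windows.

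Nfic, the gene on which the comparisons below turn, has a RefSeq start in GC-rich sequence. This start lies within the annotated span of the gene, not at its 5′ end. The 250 bases before it, on the minus strand of chr10:81427174-81427423 in GRCm38.p6, held 63.2% G and C and 3 GC boxes (GGGCGG), printed in capitals.
Nfic: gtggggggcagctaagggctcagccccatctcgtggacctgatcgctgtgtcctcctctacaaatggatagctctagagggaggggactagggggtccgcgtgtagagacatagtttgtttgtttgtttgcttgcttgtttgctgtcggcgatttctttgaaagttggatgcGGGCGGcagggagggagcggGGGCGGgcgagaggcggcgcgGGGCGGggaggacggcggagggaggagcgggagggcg
At least 1 GC box on either strand was in 35.7% of all promoter windows. RefSeq windows matched 6 of the 7 genes, with 10 windows in all. Their G and C content was 63.0% in Nfic, 74.3% in Klf4, 63.7% and 77.3% in Runx3, and 45.0% and 69.0% in Runx1. It was 45.3% in Runx2 and 35.7% to 48.3% in Mef2c, so a GC-rich start is not particular to Nfic. The DR3 vitamin D response element, found in 0.256% of all windows, had no match in the 10. Its half-site AGGTCA, found in 16.3% of windows, matched 1 time in the Runx2 window and in 2 of the Mef2c windows. The half-site GGTTCA, found in 10.4% of windows, had no match in the 10. A match describes letters only, and a missing match says only that these letters are not in these windows.

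In the mm10 assembly Runx1 (ENSMUSG00000022952) spans chromosome 16 from 92601466 to 92826149 on the minus strand, Runx2 (ENSMUSG00000039153) chromosome 17 from 44495987 to 44814797 on the minus strand, and Runx3 (ENSMUSG00000070691) chromosome 4 from 135120652 to 135177990 on the plus strand. Sp7 (ENSMUSG00000060284) spans chromosome 15 from 102356606 to 102367182 on the minus strand, 4.45 Mb from Vdr. Nfic (ENSMUSG00000055053) spans chromosome 10 from 81396186 to 81455635 on the minus strand, Mef2c (ENSMUSG00000005583) chromosome 13 from 83504034 to 83667080 on the plus strand, and Klf4 (ENSMUSG00000003032) chromosome 4 from 55527143 to 55532466 on the minus strand. All 7 are annotated as protein-coding. Exons of Runx1, Runx2 and Nfic overlap those of antisense genes (Gm26626, Runx2os1 and Gm16104). These had mean counts of 0.92, 34.4 and 17.0 per library, and the sources used here do not give the strand setting of the counting.

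Levels between genes were set per transcript length, as TPM (transcript abundance scaled to the same total in each library) computed from the counts and the summed exon length. Sp7 had the highest TPM of the 7 in 13 of 13 libraries, with a mean of 327 TPM, and Nfic was next in 13 of 13, with a mean of 135 TPM. Klf4 at 76.9 and Runx2 at 67.4 TPM came next. Their ranges overlapped, and Klf4 was the higher in 9 of the 13 libraries. Runx3 at 35.2 and Runx1 at 33.6 TPM did not differ beyond their spread either, since Runx3 was the higher in 6 of 13. Mef2c had the lowest TPM in all 13, with a mean of 19.3. This order depends on the summed exon length, which ran from 3049 bases in Klf4 to 15715 in Mef2c. Among the tested genes, 98.2% had a lower TPM in controls than Sp7, and 57.3% a lower one than Mef2c. In a bulk sample, fewer cells of a type and less RNA per cell cannot be told apart.

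**Figure D1:**
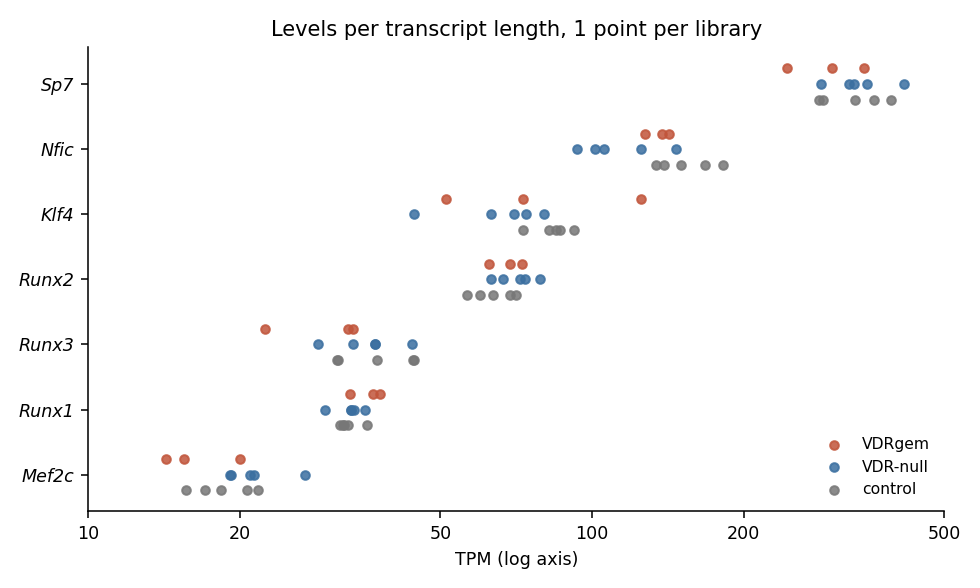
Level of each gene in TPM on a log axis, 1 point per library, for VDRgem (n = 3), VDR-null (n = 5) and control (n = 5) incisors from top to bottom within a gene. Sp7 runs from 243 to 416 TPM and Mef2c from 14.3 to 27.0 TPM, while the points of Klf4 and Runx2, and those of Runx3 and Runx1, overlap.

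Total counts ran from 20405188 in control 2 to 87783466 in VDRgem 3, and the lowest count of any of the 7 genes in any library was 808. The targeted gene Vdr had 107, 205 and 179 CPM in VDRgem libraries, 204 to 281 CPM in VDR-null libraries and 142 to 180 CPM in controls (CPM, counts scaled to a common library total after TMM). Gene counts hide which exons were read, so these levels do not check the genotype labels. All 7 ameloblast and all 7 odontoblast markers were detected in each group. Transcripts of oral keratinocytes, of which 12 of 15 markers passed the filter, varied widely between libraries. VDRgem 1, 2 and 3 had summed levels of 17600, 4070 and 331 CPM, VDR-null libraries 30.9 to 146 CPM and controls 37.1 to 563 CPM, with Ivl at 0 in every VDRgem library and Flg at 0 in every control. Cell cycle markers summed to 322 to 374 CPM in VDRgem, 348 to 814 CPM in VDR-null and 578 to 774 CPM in controls. By the edgeR test given below, all 12 of these were lower in VDRgem against control. So were 3 of 8 dental papilla markers, while 4 of 6 dental follicle and ligament markers were higher. Over all tested genes 8.62% were called. The part of such differences in the levels that follow was not tested.

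The comparisons ask which of the 7 transcription factor genes have another level when the receptor cannot answer its hormone (VDRgem) or is missing (VDR-null). Nfic was the 1 gene of the 7 to pass. It was lower in VDR-null than in control incisors, at 0.726 of the control level, and higher in VDRgem than in VDR-null. In VDRgem against control 0 of 7 genes passed edgeR's quasi-likelihood test at a Benjamini-Hochberg adjusted p of 0.05, where 8.62% of all tested genes passed. By an unadjusted p, 2 of the 7, Runx1 and Runx2, were under 0.05, beside 4266 of all 17837 tested genes. DESeq2 called 1 of the 7, Runx2, and 2320 of all 17837. The unadjusted p was under 0.05 for 2 of the 7 in VDR-null against control, beside 4068 of all genes. It was so for 3 of the 7 in VDRgem against VDR-null, beside 6202 of all genes. In VDR-null against control 1 of 7 was lower, against 1.33% of all genes called in either direction and 0.656% called lower. For VDRgem against VDR-null, 1 of 7 was higher, against 18.8% of all genes called in either direction and 10.6% called higher. The median log2 fold change of the 7 was 0.00 in VDRgem against control, -0.01 in VDR-null against control and 0.13 in VDRgem against VDR-null, beside 0.00, 0.01 and -0.02 over all tested genes. The 2 comparisons with control share their 5 control libraries.

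The selection stated with the series asks for p below 0.05 and a log2 change of more than 0.3 in size. Read as an unadjusted p, it took 0 of the 7 genes in VDRgem against control (19.0% of all tested genes), 1 in VDR-null against control (13.2%) and 3 in VDRgem against VDR-null (27.5%). The 1 was Nfic, and the 3 were Runx1, Nfic and Klf4, all higher in VDRgem. Groups did not overlap in log2 CPM for 1 of 7 genes in each comparison. This was Runx1 in VDRgem against control (19.3% of all tested genes), Nfic in VDR-null against control (7.09%) and Nfic in VDRgem against VDR-null (18.0%).

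**Figure D2:**
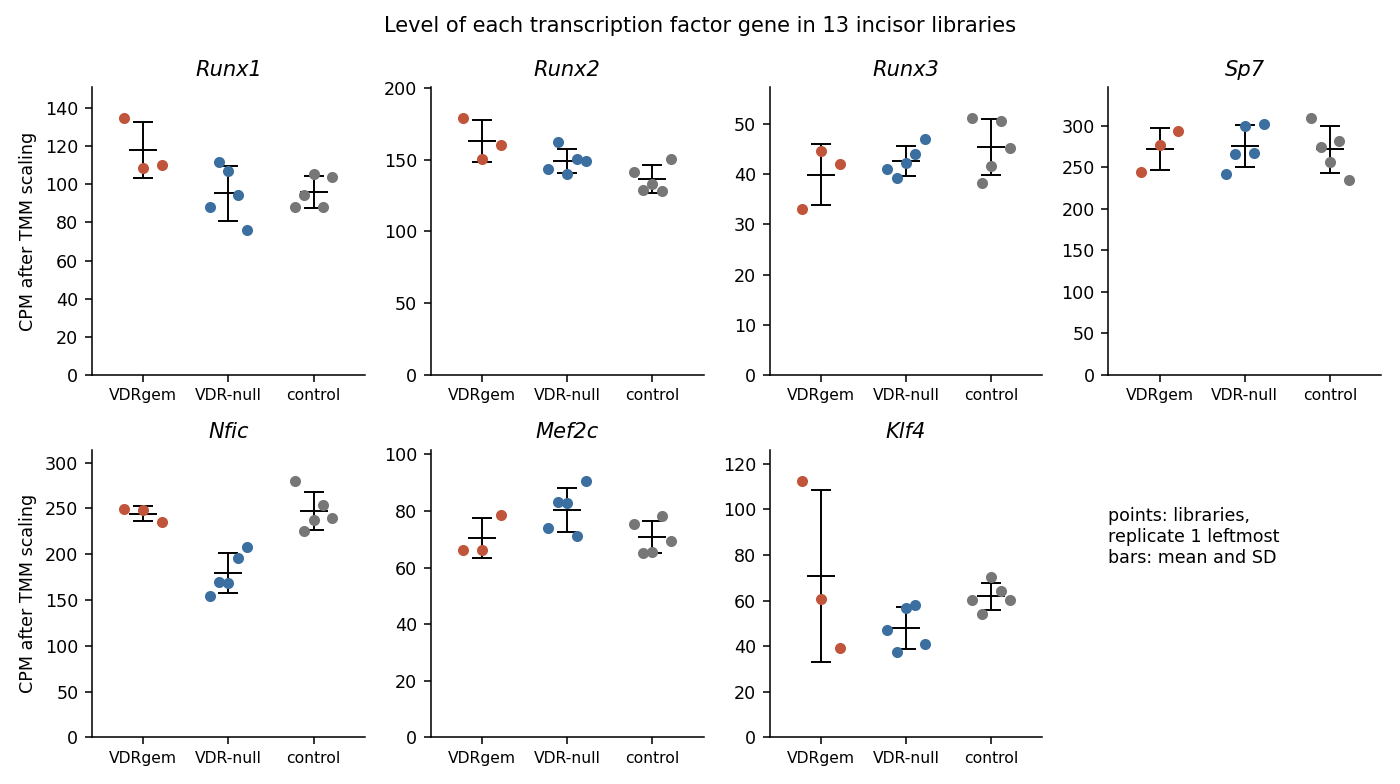
Level of each gene in CPM after TMM scaling, 1 point per library, with VDRgem (n = 3), VDR-null (n = 5) and control (n = 5) from left to right and bars for the mean and SD. All 5 VDR-null libraries lie below every control for Nfic, and the VDRgem libraries spread from 39.1 to 112.5 CPM for Klf4.

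Runx2, the factor that commits cells to the osteoblast lineage, had 179, 150 and 160 CPM in VDRgem libraries, 143, 162, 140, 150 and 149 CPM in VDR-null libraries and 141, 129, 133, 128 and 151 CPM in controls. Of the 3 VDRgem libraries, 2 lay above every control, while VDR-null and control overlapped. The log2 fold change of VDRgem against control was 0.26 (SE 0.08, 95% interval 0.09 to 0.43), which missed the threshold with an edgeR adjusted p of 0.0605. Its adjusted p was 0.022 in DESeq2 and 0.0491 in edgeR without VDR-null 2, and ran from 0.022 to 0.535 over 22 alternatives. The log2 fold change was 0.17 without VDRgem 1 (edgeR adjusted p = 0.363) and 0.08 with library totals as the scaling (0.535). Runx2 gave 0.13 in VDR-null against control (edgeR adjusted p = 0.295) and 0.13 in VDRgem against VDR-null (edgeR adjusted p = 0.255).

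Runx1, known for blood stem cells and also expressed in dental epithelium, had 135, 109 and 110 CPM in VDRgem libraries, 87.9, 111.5, 106.9, 94.6 and 76.0 CPM in VDR-null libraries and 88.2, 94.5, 105.2, 88.0 and 103.7 CPM in controls. All 3 VDRgem libraries lay above every control in CPM, and 2 VDR-null libraries lay above and 2 below the range of the controls. In TPM, without TMM scaling, VDRgem libraries ran from 33.1 to 38.0 and controls from 31.6 to 35.8, so that these ranges overlapped. VDRgem against control gave a log2 fold change of 0.30 (SE 0.12, 95% interval 0.04 to 0.56) with an edgeR adjusted p of 0.146. With library totals as the scaling it was 0.12 (edgeR adjusted p = 0.402). The two-sided exact permutation test gave p = 0.0357, the smallest that 3 against 5 libraries allow, and 0.208 after adjustment over 21 such tests. In VDR-null against control the interval was -0.23 to 0.22. VDRgem against VDR-null gave 0.31 (edgeR adjusted p = 0.0869), and 0.39 without VDR-null 2 (0.0386). Without VDRgem 1 the values were 0.18 in VDRgem against control and 0.19 in VDRgem against VDR-null (edgeR adjusted p = 0.551 and 0.4). VDRgem 1 held both the highest Runx1 level and the highest keratinocyte sum. With the keratinocyte level as a covariate the log2 fold changes were 0.19 and 0.18 in the same comparisons (edgeR adjusted p = 0.698 and 0.902). The part of the keratinocyte transcripts in the Runx1 level was not tested.

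Runx3, a RUNX factor of cartilage and of lymphocytes, had 33.1, 44.7 and 41.9 CPM in VDRgem libraries, 41.0, 39.3, 42.2, 43.9 and 46.9 CPM in VDR-null libraries and 51.2, 38.3, 41.7, 50.6 and 45.2 CPM in controls. The groups overlapped, and VDRgem 1 was the lowest of all. The 95% interval of the log2 fold change was -0.43 to 0.06 in VDRgem against control, -0.30 to 0.12 in VDR-null against control and -0.34 to 0.15 in VDRgem against VDR-null. Lymphocyte markers, of which 5 of 10 passed the filter, summed to 6.84 to 10.4 CPM in VDRgem, 5.27 to 9.48 CPM in VDR-null and 6.23 to 7.52 CPM in controls. Macrophage markers, all 10 of which passed, summed to 316 to 447 CPM in VDRgem, 301 to 424 CPM in VDR-null and 265 to 327 CPM in controls.

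Sp7, the osteoblast factor that acts after RUNX2, had 244, 277 and 293 CPM in VDRgem libraries, 242, 266, 300, 267 and 302 CPM in VDR-null libraries and 309, 275, 256, 282 and 235 CPM in controls. All 3 groups overlapped and their means lay between 271 and 275 CPM. The 95% interval of the log2 fold change was -0.22 to 0.22 in VDRgem against control, -0.17 to 0.21 in VDR-null against control and -0.24 to 0.20 in VDRgem against VDR-null. Direction is not given for Sp7, since its sign changed between alternatives in each comparison. Osteoblast and osteocyte markers, all 10 of which passed the filter, summed to 117000 to 126000 CPM in VDRgem, 42900 to 123000 CPM in VDR-null and 64700 to 108000 CPM in controls.

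Nfic, the factor that odontoblasts and roots require, had 249, 248 and 235 CPM in VDRgem libraries, 154, 170, 169, 196 and 208 CPM in VDR-null libraries and 280, 225, 237, 254 and 240 CPM in controls. Every VDR-null library lay below every VDRgem and every control library, and the VDRgem and control ranges overlapped. The means were 244 ± 8.16 CPM in VDRgem (SD, n = 3), 180 ± 22.1 CPM in VDR-null (n = 5) and 247 ± 21.1 CPM in control (n = 5). VDR-null against control gave a log2 fold change of -0.46 (SE 0.09, 95% interval -0.65 to -0.27, edgeR adjusted p = 0.0346). The two-sided exact permutation test gave p = 0.00794, the smallest that 5 against 5 libraries allow, and 0.167 after adjustment over 21 tests. VDRgem against VDR-null gave 0.44 (SE 0.10, 95% interval 0.23 to 0.66, edgeR adjusted p = 0.0117), with 3 of 3 VDRgem libraries above every VDR-null library and an exact permutation p of 0.0357. In VDRgem against control the interval was -0.24 to 0.20. In TPM, which carries no TMM scaling, VDR-null libraries ran from 93.3 to 147. VDRgem libraries ran from 127 to 142 and controls from 134 to 182, so the VDR-null range overlapped both.

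The Nfic call in VDR-null against control passed in 13 of 22 alternatives, with edgeR adjusted p above the threshold without control 1, 2, 3 or 4 (0.0971, 0.0664, 0.0824 and 0.0894), without VDR-null 1 or 2 (0.0702 and 0.0944) and without VDRgem 2 (0.0522). The log2 fold change without these single libraries was -0.49 to -0.41, against -0.46 with all of them. With the keratinocyte level as a covariate it was -0.42 (edgeR adjusted p = 0.0566). The call in VDRgem against VDR-null passed in 16 of 22. Its log2 fold change was 0.42 without VDRgem 1, 0.38 without VDRgem 1 and 2 and 0.46 with only these groups in the fit (edgeR adjusted p = 0.0736, 0.518 and 0.0515). It was 0.28 with library totals as the scaling and 0.23 with the keratinocyte covariate (edgeR adjusted p = 0.0798 and 0.833). The remaining loss in each comparison came with the GC trend removed, and its values follow.

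Base composition moved with the Nfic result. Nfic transcripts held 61.8% G and C on average, the highest of the 7 genes, and Klf4 held 61.5%. The others were Runx3 at 59.9%, Sp7 at 59.7%, Runx2 at 53.5%, Runx1 at 50.8% and Mef2c at 45.0%. Among 771 tested genes at 60% or more, the median log2 fold change was 0.12 in VDRgem against control, -0.37 in VDR-null against control and 0.50 in VDRgem against VDR-null. Among 593 genes under 40% the medians were -0.05, 0.19 and -0.25. Across 17822 genes, which are not independent replicates, Pearson's r between GC content and log2 fold change was 0.0688, -0.327 and 0.229 in the same comparisons.

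**Figure D3:**
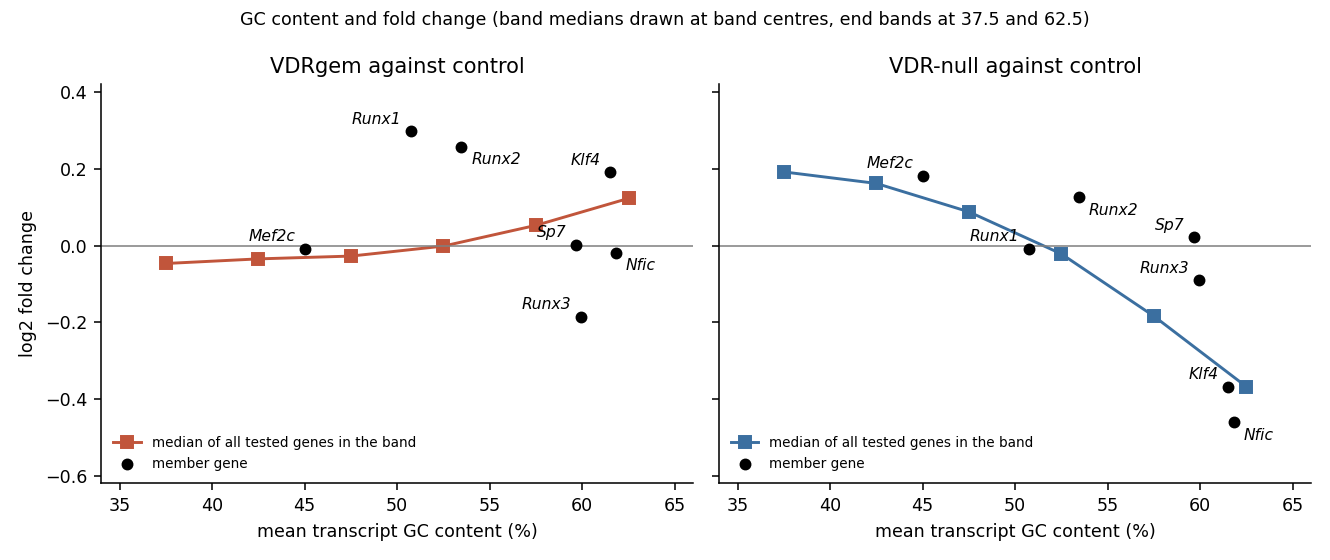
Log2 fold change against mean transcript GC content, for VDRgem against control (left) and VDR-null against control (right), with squares for the median of all tested genes in a band and dots for the 7 genes. In VDR-null the medians run from 0.19 in the lowest band to -0.37 in the highest, where Nfic at -0.46 and Klf4 at -0.37 lie, while Sp7 at 0.02 and Runx3 at -0.09 lie above the line.

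Library by library, Nfic and the GC-rich genes were set against the control mean on the log2 scale. Nfic lay at -0.68, -0.54, -0.55, -0.33 and -0.24 in VDR-null 1 to 5. The median of the genes at 60% GC or more lay at -0.71, -0.43, -0.14, -0.25 and -0.37 in the same libraries. Nfic was below the median of that band in VDR-null 2, 3 and 4 and above it in VDR-null 1 and 5. After an offset that removed a smooth GC trend from each library, an alternative added after results were seen, Nfic gave -0.05 in VDR-null against control (edgeR adjusted p = 0.86) and -0.10 in VDRgem against VDR-null (edgeR adjusted p = 0.587). With the same offset Klf4 gave 0.02 in VDR-null against control and -0.03 in VDRgem against VDR-null (edgeR adjusted p = 0.981 and 0.934). Sp7 and Runx3 gave -0.44 and -0.54 in VDRgem against VDR-null (edgeR adjusted p = 0.0295 and 0.0378), where 8.54% of all tested genes were called lower with that offset, and 0.34 and 0.24 in VDR-null against control (edgeR adjusted p = 0.139 and 0.391). The offset takes up any change shared by genes of like GC content, and whether that trend comes from the libraries or the tissue was not tested.

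**Figure D4:**
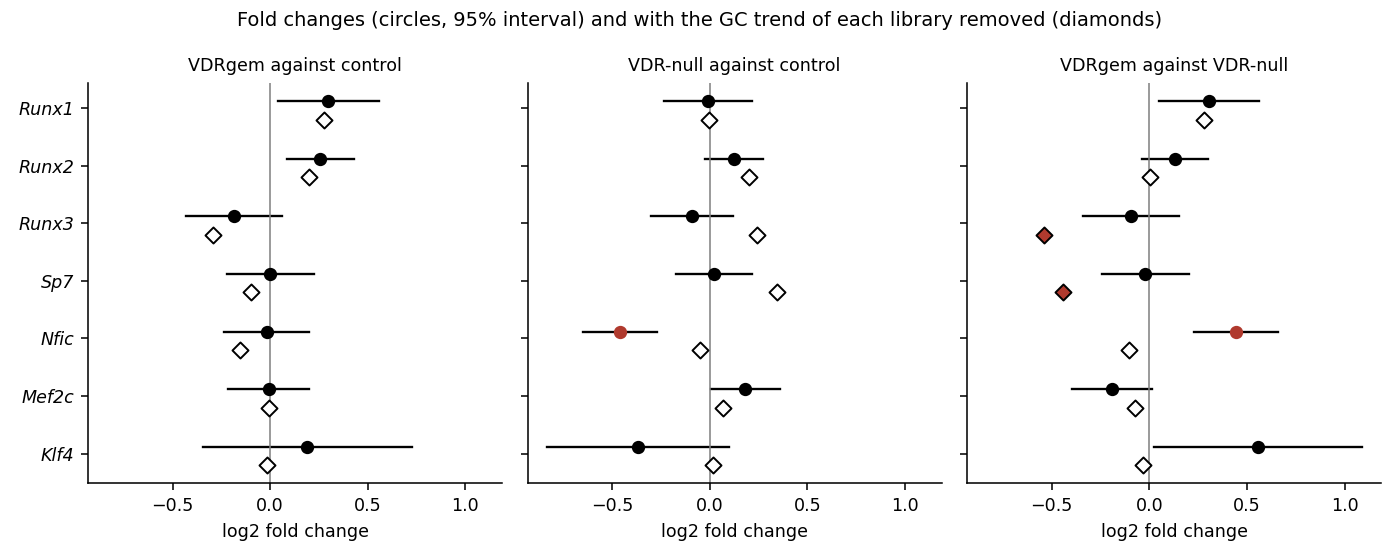
Log2 fold change of each gene in the 3 comparisons, with circles and lines for the edgeR estimate and its 95% interval, diamonds for the estimate with the GC trend of each library removed, and red for an adjusted p under 0.05. Nfic passes as a circle in VDR-null against control and in VDRgem against VDR-null, and its diamonds lie at -0.05 and -0.10.

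Klf4, which promotes odontoblast differentiation and is also a factor of maturing keratinocytes, had 112.5, 60.5 and 39.1 CPM in VDRgem libraries, 47.1, 37.3, 56.7, 57.9 and 41.1 CPM in VDR-null libraries and 60.1, 54.2, 70.5, 64.2 and 60.4 CPM in controls. VDRgem 1 was the highest and VDRgem 3 among the lowest of all 13 libraries, and 3 of 5 VDR-null libraries lay below every control. The VDRgem libraries had the same order in the keratinocyte sum (17600, 4070 and 331 CPM), and the part of these transcripts in the Klf4 level was not tested. VDR-null against control gave a log2 fold change of -0.37 (SE 0.22, 95% interval -0.84 to 0.10, edgeR adjusted p = 0.331), with an exact permutation p of 0.0397 and 0.208 after adjustment over 21 tests. VDRgem against control gave 0.19 (95% interval -0.35 to 0.73) and -0.33 without VDRgem 1. VDRgem against VDR-null gave 0.56 (edgeR adjusted p = 0.126), 0.04 without VDRgem 1 (0.915) and 0.87 without VDRgem 3 (0.00932). With the keratinocyte level as a covariate the values were -0.92 in VDRgem against control and -0.73 in VDRgem against VDR-null, and neither passed.

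**Figure D5:**
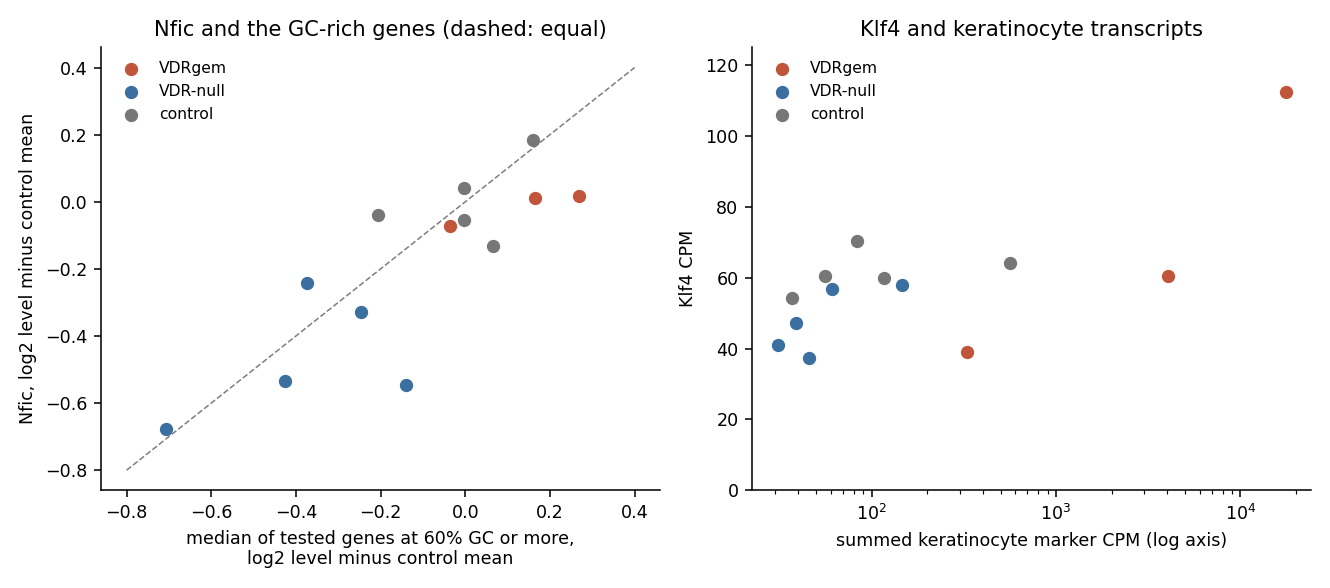
Left, Nfic in each library against the median of tested genes at 60% GC or more, both as log2 level minus the control mean, with a dashed line where they are equal. Right, Klf4 in CPM against the summed CPM of keratinocyte markers on a log axis, where VDRgem 1 lies at 112.5 CPM of Klf4 and 17600 CPM of markers.

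Mef2c, a factor of hypertrophic cartilage, osteocytes and muscle, had 66.2, 66.4 and 78.5 CPM in VDRgem libraries, 74.0, 83.2, 82.7, 71.3 and 90.7 CPM in VDR-null libraries and 75.5, 65.3, 65.7, 78.1 and 69.5 CPM in controls. Of the VDR-null libraries 3 lay above every control, and the groups overlapped. VDR-null against control gave a log2 fold change of 0.18 (SE 0.08, 95% interval 0.00 to 0.36, edgeR adjusted p = 0.21) and an exact permutation p of 0.0556. VDRgem against VDR-null gave -0.19 (edgeR adjusted p = 0.173), and -0.35 with an edgeR adjusted p of 0.0287 when library totals were the scaling. With that scaling the median of all genes was -0.188, beside -0.02 with TMM. In VDRgem against control the interval was -0.21 to 0.20. Skeletal muscle markers, of which 11 of 13 passed the filter, summed to 285, 54.1 and 32.9 CPM in VDRgem 1 to 3, 4.14, 11.3, 767, 27.6 and 75.3 CPM in VDR-null 1 to 5 and 6.97 to 31.7 CPM in controls. The part of muscle transcripts in the Mef2c level was not tested. Endothelial markers, all 10 of which passed the filter, summed to 771 to 902 CPM in VDRgem, 586 to 779 CPM in VDR-null and 664 to 759 CPM in controls.

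The genes around these factors were read from 8 lists of cofactors, regulators, target genes and family members. Of 18 RUNX partners and cofactors, 1 rose in VDRgem against control, 0 changed in VDR-null against control, and 2 rose in VDRgem against VDR-null, with medians of -0.05, 0.03 and 0.03. Over all tested genes 8.62%, 1.33% and 18.8% were called in either direction, and 10.6% were called higher in VDRgem against VDR-null, so these counts were near or below the background. Tle1, a corepressor that RUNX proteins recruit, averaged 37.9 ± 4.04 CPM in VDRgem (SD, n = 3) and 27.4 ± 3.66 CPM in control (n = 5), a log2 fold change of 0.47 (SE 0.12, edgeR adjusted p = 0.0264). The class IIa histone deacetylases Hdac5 and Hdac7, which bind RUNX2 and MEF2 proteins, rose in VDRgem against VDR-null by 0.72 and 0.48 (edgeR adjusted p = 0.00667 and 0.0142). With the GC trend removed these were 0.25 and 0.04 (edgeR adjusted p = 0.0419 and 0.768), and their transcripts held 60.1% and 59.8% G and C. Tle2 and Hdac4 gave -0.68 and -0.36 in VDR-null against control and did not pass (edgeR adjusted p = 0.0681 and 0.0684).

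Among 17 skeletal and dental regulators that act with or before Runx2 and Sp7, 2 rose and 4 fell in VDRgem against control, and 1 fell in VDR-null against control. Over all tested genes 8.62% were called in VDRgem against control, and 0.656% were called lower in VDR-null against control. The list medians were -0.26 and 0.02, beside 0.00 and 0.01 over all tested genes. Sox9, the master factor of cartilage and a factor of dental stem cells, averaged 38.8 ± 12.4 CPM in VDRgem (SD, n = 3) and 75.5 ± 10.1 CPM in control (n = 5), and fell by 0.96 on the log2 scale (SE 0.20, edgeR adjusted p = 0.0141). Dlx5, a homeobox activator of Runx2 and Sp7, averaged 43.3 ± 6.12 CPM in VDRgem, 41.8 ± 8.51 CPM in VDR-null and 64.5 ± 6.71 CPM in control. It fell by 0.57 in VDRgem (edgeR adjusted p = 0.0364) and by 0.63 in VDR-null (edgeR adjusted p = 0.042), and it was the 1 gene of these lists to pass in both comparisons, which share their controls. Lef1, a Wnt factor that represses Runx2-driven transcription, fell by 0.72 in VDRgem against control (edgeR adjusted p = 0.0211). Twist2, which inhibits RUNX2, fell by 1.04 (edgeR adjusted p = 0.0338), while Zfp521, a RUNX2 antagonist, rose by 0.38 and the forkhead factor Foxo1 by 0.31 (edgeR adjusted p = 0.023 and 0.0424). Of 22 alternatives in VDRgem against control, Sox9 passed in 19, Lef1 in 17 and Zfp521 in 16. Twist2 passed in 14, Dlx5 in 12 and Foxo1 in 7. Between the mutants, 1 of the 17 was higher and 4 were lower in VDRgem, where 18.8% of all genes were called, and the median was -0.28 beside -0.02. Zfp521 rose by 0.34, Lef1 fell by 0.65, Sox9 by 0.66, and the homeobox genes Msx2 and Dlx6 by 0.47 and 0.31 (edgeR adjusted p of 0.0126 to 0.0497). Of 22 alternatives between the mutants, Msx2 passed in 18, Lef1 in 17, Zfp521 in 16, Sox9 in 14 and Dlx6 in 5.

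Of 16 osteoblast genes that RUNX2 and SP7 are known to activate, 0 passed in VDRgem against control, with a median of 0.31, and 0 in VDR-null against control, with a median of 0.05. By the selection stated with the series there were 5 and 3, which 19.0% and 13.2% of all tested genes met. Ibsp, the matrix protein bone sialoprotein, gave 0.71 in VDRgem and 0.70 in VDR-null against control (edgeR adjusted p = 0.0538 and 0.0637). Col1a2, a chain of type I collagen, and Mmp13, a collagenase, gave 0.62 and 0.47 in VDRgem against control (edgeR adjusted p = 0.078 and 0.089). In VDRgem against VDR-null 3 of 16 were higher, where 10.6% of all genes were. They were the bone matrix gene Spp1 by 1.24, Col1a2 by 0.62 and the osteocyte gene Mepe by 2.92 (edgeR adjusted p = 0.0171, 0.0499 and 0.0441). Mepe was 1.38 without VDRgem 1 (edgeR adjusted p = 0.399) and 0.36 with the keratinocyte covariate (0.974). Of 22 alternatives, Spp1 passed in 19, Mepe in 9 and Col1a2 in 6. Of 8 odontoblast genes downstream of Nfic and Klf4, 0 passed in any of the 3 comparisons, and 2, 1 and 3 met the selection stated with the series, close to the 19.0%, 13.2% and 27.5% of all tested genes. Dspp, the dentin matrix gene, gave 0.23 in VDRgem and 0.29 in VDR-null against control (edgeR adjusted p = 0.617 and 0.451). Dlx3 gave -0.43 in VDRgem against control, Panx3 0.40 and Smpd3 -0.45 in VDR-null against control, none past the threshold.

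In the gene families, Nfix resembled Nfic in direction. Nfix fell in VDR-null against control by 0.60 on the log2 scale (SE 0.10, edgeR adjusted p = 0.0223) and rose in VDRgem against VDR-null by 0.72 (edgeR adjusted p = 0.0028). Nfia and Nfib, the other members of the nuclear factor I family, did not pass. Nfix transcripts held 58.0% G and C, and with the GC trend removed it gave -0.34 in VDR-null against control and 0.34 in VDRgem against VDR-null (edgeR adjusted p = 0.139 and 0.0701). Of 3 tested MEF2 genes 0 passed in any comparison, with Mef2d at 0.25 in VDRgem against VDR-null (edgeR adjusted p = 0.0568). Of 8 tested SP genes, Sp6, an enamel organ factor, fell in VDRgem against control by 0.53 (edgeR adjusted p = 0.021), and 0 passed in VDR-null against control. Between the mutants, Sp2 rose by 0.43 in VDRgem, while Sp4 and Sp6 fell by 0.64 and 0.42. Of 22 alternatives, Sp2 passed in 9 and Sp4 and Sp6 in 14 each. With the GC trend removed Sp2 gave 0.13 (edgeR adjusted p = 0.364). Of 16 tested KLF genes, Klf5, Klf9 and Klf10 rose in VDRgem against control, by 1.52, 0.66 and 0.74 (edgeR adjusted p = 0.0162, 0.0107 and 0.00982), and 0 passed in VDR-null against control. The same 3 and Klf14 rose in VDRgem against VDR-null, by 1.49, 0.46, 0.66 and 0.78, and passed in 18, 18, 19 and 11 of 22 alternatives. Over all tested genes 8.62% were called in VDRgem against control and 10.6% called higher in VDRgem against VDR-null. Klf5 is known as a factor of basal epithelial cells, and its log2 fold change against control was 0.77 without VDRgem 1.

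Apart from the 7 factors, these 8 lists held 82 tested genes. Of them 11 (13.4%) were called in VDRgem against control, 2 (2.44%) in VDR-null against control and 18 (21.95%) in VDRgem against VDR-null, beside 8.62%, 1.33% and 18.8% of all tested genes. Without VDRgem 1, a fit with 1 library fewer, 11 of the 11 and 17 of the 18 missed the threshold in edgeR, and Nfix was the exception with an adjusted p of 0.022. The log2 fold change of 10 of the 11 and of 13 of the 18 was within 1.5 times its value with all libraries or larger, Sp6 at -0.52 and Klf9 at 0.63 against control among them. Klf5 was smaller by more than that in both comparisons, and Dlx6, Klf14, Mepe and Sox9 in VDRgem against VDR-null. With the keratinocyte covariate, which differs between groups, 11 of the 11 and 18 of the 18 missed the threshold in edgeR. The 2 calls in VDR-null, Dlx5 and Nfix, were both lost without control 1, 2, 3 or 4 and without VDR-null 1 or 2. Without control 1 to 4 the adjusted p was 0.111, 0.0872, 0.106 and 0.0989 for Dlx5 and 0.0669, 0.053, 0.0647 and 0.057 for Nfix. Without VDR-null 1 or 2 it was 0.0864 and 0.0944 for Dlx5 and 0.0579 and 0.0678 for Nfix. Dlx5 also missed without VDR-null 5 (0.0533), without VDRgem 2 (0.0652) and with the keratinocyte covariate (0.0594). In these single-library fits the log2 fold change was -0.66 to -0.54 for Dlx5 and -0.63 to -0.59 for Nfix, against -0.63 and -0.60 with all libraries. With the GC trend removed they were smaller, at -0.44 for Dlx5 and -0.34 for Nfix (edgeR adjusted p = 0.0956 and 0.139).

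For each factor the genes with the most similar pattern were those with the highest Pearson r of log2 CPM over the 13 libraries, among 14165 genes averaging 1 CPM or more. The values describe libraries that share depth, GC trend and tissue makeup. For Runx2 they were Trim16 (r = 0.948), Ahnak (0.915) and the aryl hydrocarbon receptor gene Ahr (0.909), and for Runx1 Cmtm6 (0.948), the tight junction gene F11r (0.934) and Phlda3 (0.932). Runx3 was most like Clip3 (0.904), 9530082P21Rik (0.877) and Scube1 (0.873), and Sp7 most like Fam19a5 (0.949), the sialyltransferase gene St3gal5 (0.912) and Bmp8a (0.908), a bone morphogenetic protein gene. Nfic was most like the mitochondrial pyruvate carrier gene Mpc1 (0.973), Rps4l (0.931) and Rere (0.93). Of these 3, Mpc1 transcripts held 48.7% G and C and Rps4l 60.2%. With group means removed, r with Nfic was 0.891 for Mpc1, 0.732 for Rps4l and 0.75 for Rere. Mef2c was most like Filip1 (0.912), Samd9l (0.907) and Scamp5 (0.906), and Klf4 most like Hopx (0.94), the kallikrein gene Klk10 (0.935) and Mta3 (0.934).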

How the data were processed

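The libraries were stranded and poly-A selected, each from 300 ng of total RNA and 12 cycles of PCR, per the labels' protocols. The authors deposited whole-number counts per gene. The submitters' processing notes name bcl2fastq (version 2.20.0.422), HTSeq (0.6.1p1) and STAR (2.5.3a), and the mm10 build. How strands, low genes and the annotation were handled in the counting is not stated there. No library was a copy of another (smallest chi-square per degree of freedom 16.5 within groups).

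The test was edgeR 4.0.16 (R 4.3.3) on counts after TMM scaling and filterByExpr (minimum count 10), with 13 libraries in 1 fit, a mean per group and Benjamini-Hochberg adjustment over 17837 genes. Single genes also had exact permutation tests of log2 CPM (scipy 1.17.1). The tests were tried on simulated counts. GENCODE M21 on GRCm38 gave symbols, exon lengths and the GC content of transcripts, and RefSeq gave promoters.

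The 7 genes, the 8 network and family lists, the 15 marker lists and the tests were chosen with earlier results of these data known. Named are the 7, the 3 most similar genes of each, up to 3 genes per network or family list by smallest p against control, and every gene of such a list that passed where 5 or fewer did. Dspp, Twist2, Zfp521, Foxo1, Msx2 and Dlx6 were named after their values were seen. Alternatives were DESeq2 1.42.0, limma-voom (limma 3.58.1), other scalings, no filter, only the groups compared, a keratinocyte covariate, a GC offset (spline with 5 degrees of freedom, added later) and leaving out libraries. Figures were drawn with matplotlib 3.10.9.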

Additional observations from a re-analysis of the deposited data

Results flagged for a closer look

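Nfic had different levels in the mutants by edgeR's test. Its log2 fold change of VDRgem against VDR-null was 0.44 (edgeR adjusted p = 0.0117), with 3 of 3 VDRgem libraries above all 5 VDR-null libraries in CPM. In TPM, without TMM scaling, VDR-null 5 at 147 lay above all 3 VDRgem libraries, at 127 to 142. With the GC trend of each library removed the log2 fold change was -0.10 (edgeR adjusted p = 0.587), and the call passed in 16 of 22 alternatives. No library stood out in any of the 14 groups of 5 libraries by Dixon's test, which was not applied to the 3 VDRgem libraries.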

How the results depend on the processing

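No paired analysis was possible because the labels number no replicates across groups. Over 22 alternatives, 400 of 462 log2 fold changes of the 7 genes had the same direction and side of the threshold, 14 lost a call with the same sign, 7 gained one and 41 changed sign, of which 0 passed after the change. With 1 of the 41, Nfic in VDRgem against VDR-null with the GC trend removed, 15 lost a call. Fits that leave 1 VDRgem library assume that it varies like the other groups, and the keratinocyte covariate differs between groups, so it takes up part of their difference. The cause was not tested for any of these changes.

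Of all genes tested, edgeR called 1537 in VDRgem against control (856 higher, 681 lower), 238 in VDR-null against control (121 higher, 117 lower) and 3346 in VDRgem against VDR-null (1887 higher, 1459 lower). Library totals gave 589 higher and 1576 lower, 91 and 256, and 1310 and 3616. With that scaling the median log2 fold change of all genes was -0.168, 0.006 and -0.188, beside 0.00, 0.01 and -0.02 with TMM. In VDRgem against control the count was 2320 with DESeq2, 981 with limma-voom, 5 without VDRgem 1 and 2, and 66 to 2021 without single libraries. With the keratinocyte covariate it was 0, where 2576 genes had an unadjusted p under 0.05 and DESeq2 without the covariate called 2320. In VDR-null against control it was 1647 with DESeq2, 57 with the GC trend removed, 69 with the covariate, 703 with only these groups, 676 without VDRgem 1 and 2, and 6 to 685 without single libraries. In VDRgem against VDR-null it was 13 with the covariate, 753 with only these groups, 32 without VDRgem 1 and 2, and 434 to 4610 without single libraries. The stated selection took 3385 and 2349 genes in VDRgem and VDR-null against control.

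The counts of all genes called are set in brackets here. Of the 7 genes, DESeq2 called 1 in VDRgem against control (2320 of 17837), and edgeR called 0 to 1 without single libraries (66 to 2021). In VDR-null against control, 0 passed with the GC trend removed (57) or the covariate (69) and 0 to 1 without single libraries (6 to 685). In VDRgem against VDR-null, 2 passed with the GC trend removed (2577 of 17837), and 3 by the stated selection (4908). In the same comparison 0 passed with the covariate (13) or with only these groups (753), and 0 to 2 without single libraries (434 to 4610). Of 21 exact permutation tests 4 had an unadjusted p under 0.05, and 2 to 4 did without single libraries. A VDRgem comparison that loses a library cannot give an exact p under 0.05, whatever its levels. That range therefore does not show how far the VDRgem results depend on single libraries.

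These log2 fold changes had the other sign under an alternative, or a range without single libraries that spans 0. In VDRgem against control, Sp7 was -0.10 with the GC trend removed, -0.16 with library totals, -0.0019 with limma-voom and -0.053 to 0.061 without single libraries. Without single libraries Nfic was -0.051 to 0.030 and Mef2c -0.089 to 0.034, and Mef2c was 0.066 with the covariate and 0.14 without VDRgem 1 and 2. Klf4 was -0.016 with the GC trend removed, -0.92 with the covariate, -0.68 without VDRgem 1 and 2 and -0.33 to 0.49 without single libraries. In VDR-null against control, Runx1 was 0.0099 with the covariate and -0.086 to 0.063 without single libraries, Sp7 was -0.027 to 0.072 without single libraries, and with the GC trend removed Runx3 was 0.24 and Klf4 0.016. In VDRgem against VDR-null, Runx2 was -0.034 with library totals and Runx3 -0.17 to 0.013 without single libraries. Sp7 was 0.024 with the covariate, 0.084 without VDRgem 1 and 2 and -0.064 to 0.042 without single libraries. With the GC trend removed Nfic was -0.10 and Klf4 -0.031. Klf4 was -0.73 with the covariate and -0.30 without VDRgem 1 and 2, and Sp2 was -0.076 with the covariate.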
